A study of Rattus norvegicus with 11 samples.

Results

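Collagen chains and the enzymes that modify, cut and cross-link them were followed across 11 rat RNA samples, each measured on 1 Agilent 1-colour array. The members were the genes whose array symbol is Col, a number, a and a number, together with lysyl oxidases, lysyl hydroxylases, a prolyl hydroxylase, a chaperone and propeptide-cutting proteins fixed by name. The rule found 51 genes on 71 probes, of 16898 named genes on 30367 probes, and comprised 37 collagen chains and 14 other genes. The rule uses gene names and no measured value, but it was chosen with earlier results of these data known. Where a gene had more than 1 probe, the brightest was used (mean log2 intensity over the 11 arrays). Of the 51 genes, 42 passed a filter on dim probes (29 chains and 13 others) and entered the comparisons. The filter asked for a place above the array's median in at least 1 group. As 7 members met it in 1 group only (Col6a3 and Col11a1 in EC after ASTspan8 exosomes, Col7a1, Col23a1 and Col24a1 in exosome RNA, Col27a1 in untreated RF and Col11a2 in ASML cells with CD44 knock-down) and 11 met it only in EC or RF groups, counts and medians over the 42 lean towards these groups and are given as descriptions. The 9 that did not pass were Adamts14, Col10a1, Col13a1, Col22a1, Col4a3, Col4a4, Col6a6, Col8a2 and Col9a2. Their probes were dim on every array, with log2 values from 5.97 (the lowest, for Adamts14 in ASML cells with CD44 knock-down) to 7.48 (the highest, for Col22a1 in exosome RNA).

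The study asked how exosomes, small vesicles released by tumour cells, alter the cells that receive them. EC, a line labelled as endothelial, was profiled after exosomes of the pancreatic adenocarcinoma line AS carrying tetraspanin 8 (ASTspan8, 2 arrays), after exosomes of AS itself (1 array) and at base line (1 array). RF, labelled endothelial fibroblasts, had 1 array under each of the same 3 conditions. The other arrays held RNA of the ASTspan8 exosomes (2 arrays), ASML pancreatic adenocarcinoma cells with CD44, a hyaluronan receptor, knocked down (1 array), and wild type ASML cells (1 array). All cells were grown in medium with serum and G418. Exposure time and exosome dose are not stated in the labels, and nothing there says whether duplicate arrays came from separate cultures, so p-values measure only the spread between arrays. The exosome donor line derives from AS and the cell line set beside it is ASML, so these 2 samples differ in line as well as in being vesicles or cells.

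Fibrillar collagens (types I, III, V and XI among others) are made as procollagen chains that are hydroxylated in the endoplasmic reticulum, wind into a helix with the help of the chaperone Hsp47 (Serpinh1), and are secreted. Outside the cell, Adamts2 and Bmp1 cut off the end propeptides, Pcolce enhances the Bmp1 cut, and lysyl oxidases cross-link the fibrils. Type IV collagen builds the basement membrane under endothelium and epithelium, and type VI collagen forms beaded filaments around cells, while fibroblasts are the main makers of fibrillar collagen in most tissues.

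Promoter sequence was available from RefSeq (build GRCr8, 250 bases before to 50 bases from the start of each gene) for 41 of the 51 members. The following 4 are shown because the results below turn on these genes or on the groups they belong to. Col1a2 is the chain with the largest difference between the recipient lines and ASML cells, Serpinh1 is the chaperone of the same path, Col6a1 has the largest difference with CD44 knock-down, and Col4a1 rose in EC. Capitals mark matches to CCAAT, to TATAAA or to GAANNTTC (a pair of inverted heat-shock-element units, which overlaps neither of the others), each read on both strands.
Col1a2 (chr4:33518307-33518606, plus strand): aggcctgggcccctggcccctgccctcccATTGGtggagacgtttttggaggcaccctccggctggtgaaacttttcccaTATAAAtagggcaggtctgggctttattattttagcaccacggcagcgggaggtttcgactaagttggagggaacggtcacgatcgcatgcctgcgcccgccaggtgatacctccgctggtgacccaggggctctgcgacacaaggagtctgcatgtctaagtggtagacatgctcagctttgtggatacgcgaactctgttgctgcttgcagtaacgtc
Serpinh1 (chr1:163062927-163063226, minus strand): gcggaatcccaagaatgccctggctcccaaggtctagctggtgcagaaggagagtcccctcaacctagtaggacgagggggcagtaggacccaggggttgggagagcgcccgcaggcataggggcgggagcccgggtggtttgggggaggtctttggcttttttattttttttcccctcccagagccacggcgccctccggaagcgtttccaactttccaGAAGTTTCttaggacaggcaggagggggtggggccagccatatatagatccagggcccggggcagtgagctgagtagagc
Col6a1 (chr20:11905440-11905739, plus strand): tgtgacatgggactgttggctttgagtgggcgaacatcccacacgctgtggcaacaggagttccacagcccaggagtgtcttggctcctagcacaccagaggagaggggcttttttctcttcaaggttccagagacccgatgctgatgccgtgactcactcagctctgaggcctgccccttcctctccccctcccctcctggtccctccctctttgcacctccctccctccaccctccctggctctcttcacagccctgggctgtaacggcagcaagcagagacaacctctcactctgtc
Col4a1 (chr16:84885347-84885646, plus strand): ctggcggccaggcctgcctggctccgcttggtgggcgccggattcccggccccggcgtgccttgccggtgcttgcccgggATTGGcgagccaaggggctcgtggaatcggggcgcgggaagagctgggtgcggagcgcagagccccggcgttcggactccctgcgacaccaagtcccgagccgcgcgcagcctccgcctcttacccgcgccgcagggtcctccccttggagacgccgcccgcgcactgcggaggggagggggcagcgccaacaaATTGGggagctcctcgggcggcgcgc
In the Col1a2 window a CCAAT match on the reverse strand began 221 bases before the start and a TATAAA match 170 bases before it. The Serpinh1 window held a GAANNTTC match 30 bases before the start, the Col6a1 window held none of the 3 motifs, and the Col4a1 window held reverse-strand CCAAT matches 170 bases before and 25 bases after the start. Among the 41 windows, 9 (22.0%) held CCAAT, 4 (9.8%) TATAAA and 5 (12.2%) GAANNTTC, against 37.7%, 14.3% and 8.3% of 27457 windows of the same length. Col4a1 and Col4a2, the chains of the most widespread type IV collagen, are transcribed away from each other from starts 77 bases apart on chromosome 16, so that their windows share 176 bases. Col3a1 and Col5a2 are neighbours on chromosome 9, with 38189 bases between them, and Col6a1 and Col6a2 are neighbours on chromosome 20, with 97070 bases between them.

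The labelled cell types were set against marker lists. Of 15 endothelial markers, 1 to 3 lay above the array's 75th percentile on the EC and RF arrays and 0 on the others, and on the EC control array the defining markers read 7.50 for Pecam1, 7.87 for Cdh5, 6.52 for Kdr and 6.10 for Tek (log2 intensity; the floor set on all values is 5.96). Of 14 fibroblast markers (of which Fap, Prrx1 and Twist1 are also in the partner lists used below), 9 or 10 lay above the 75th percentile on every EC and RF array, so the EC arrays do not show the profile their label names and are called EC here only as a label. Of 12 epithelial markers, 9 were above it in ASML cells with CD44 knock-down and 10 in wild type ASML cells, against 0 on the EC and RF arrays. The targeted gene Cd44 read 12.30 in ASML cells with the knock-down, against 13.56 in wild type cells. Tspan8 read 10.16 and 10.28 in exosome RNA, 13.06 and 13.80 in the ASML arrays with and without the knock-down, and 6.30 to 6.65 on the EC and RF arrays. The 2 EC arrays after ASTspan8 exosomes differed by 0.14 log2 (SD over 18619 probes) and the 2 exosome arrays by 0.40. Within neither pair was a member gene 2-fold apart, the widest gap being 0.88 log2 for Col1a1 in exosome RNA, although Cd44 itself read 11.11 and 6.02 on the 2 exosome arrays. For the untreated RF sample, the source label reads as an endothelial line while its title and cell type say RF.

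More collagen genes were bright in the recipient lines than in the tumour cells. Each array has the same share of all its probes above its own 75th percentile. The counts below were not made over all genes and are descriptions. Of the 51 members, 25 to 27 exceeded the array's 75th percentile in EC and 23 to 25 in RF, against 13 and 14 on the exosome arrays, 7 in ASML cells with CD44 knock-down and 6 in wild type ASML cells. Of the 42 that passed the filter, 12 exceeded it in both recipient controls and neither in exosome RNA nor in wild type ASML cells. These were 5 fibrillar or beaded-filament chains (Col1a1, Col1a2, Col3a1, Col6a1 and Col6a2), the network chain Col8a1, the hydroxylases P4ha3 and Plod2, the propeptide peptidase Adamts2 and the lysyl oxidases Lox, Loxl1 and Loxl3. Among these 12, Col1a1, Col8a1, P4ha3, Plod2 and Lox passed the filter only through EC or RF groups, which favours this pattern. A further 5 exceeded it in both recipient controls and in exosome RNA (Col5a1, Col5a2, Col12a1, Loxl2 and Serpinh1). The 6 that did so in all of these samples were Bmp1, Col16a1, Col18a1, Pcolce, Plod1 and Plod3. The other members were above it in 1 recipient line (Col4a1, Col5a3, Col14a1 and Col15a1, of which Col5a3 and Col15a1 also in exosome RNA) or in none of these samples (15 genes).

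**Figure D1:**
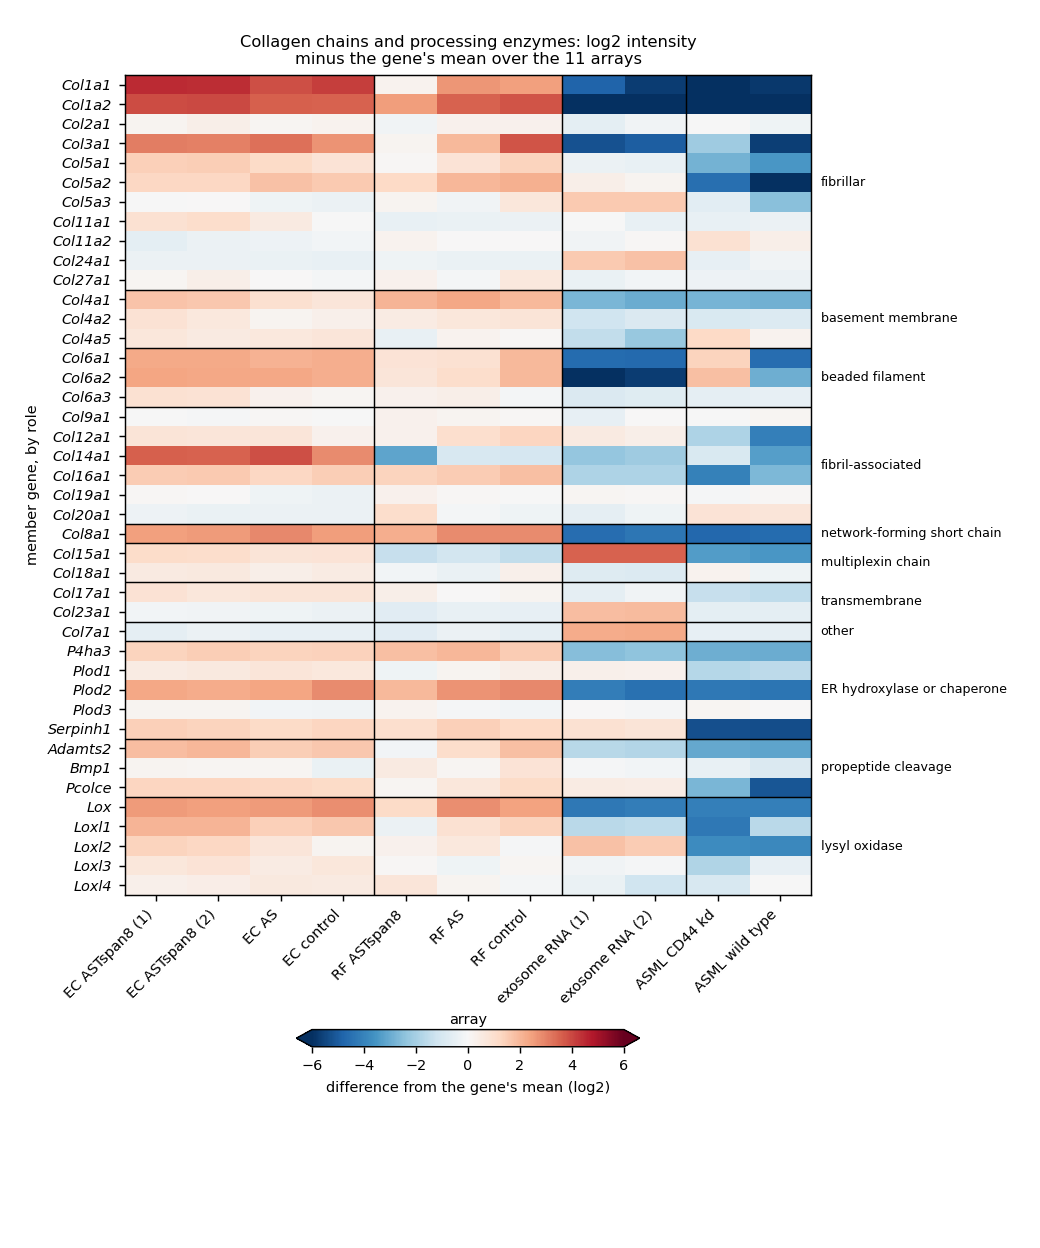
Log2 intensity of the 42 members that passed the filter, minus each gene's mean over the 11 arrays (columns: arrays; rows: genes grouped by role; red above and blue below the mean, with values beyond 6 drawn at the end colours). Col1a2, Lox, Plod2 and Col8a1 are red in EC and RF and blue in exosome RNA and ASML cells, whereas Col15a1, Col7a1, Col23a1 and Col24a1 are reddest in exosome RNA.

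The 2 recipient lines at base line were compared with wild type ASML cells. In limma's test with Benjamini-Hochberg adjustment at 0.05, 30 of the 42 members were higher in the mean of the EC and RF controls and 2 were lower, where 32.8% of 11060 genes tested were higher and 35.4% lower (68.2% in either direction). The members' median difference was 2.88 log2, beside -0.06 over all genes tested. Of the 42, 11 passed the filter only through EC or RF groups, which favours higher calls. The count and the median are therefore descriptions. Each of these 3 groups is 1 array, so the SE comes from the spread within the EC pair after ASTspan8 exosomes and the exosome pair, which the single arrays are assumed to share. The cells differ in kind, and the epithelial and fibroblast marker lists above differ between them too; the part of cell type, growth and handling in these differences was not tested.

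Type I collagen, the main protein of fibrils, had the widest gaps. Col1a2 read 17.16 in the EC control and 17.40 in the RF control, against 7.53 in wild type ASML cells, a difference of 9.75 ± 0.20 log2 (SE, adjusted p = 9.54e-05). Col1a1, its partner chain, read 16.37 in the EC control and 14.67 in the RF control, against 6.43 in ASML cells (9.09 ± 0.40, adjusted p = 0.000408). The ASML value of Col1a1 lay close to the floor, which limits its measured ratio. Type III collagen (Col3a1), which co-assembles with type I, read 14.74 in the EC control and 15.82 in the RF control, against 6.37 in ASML cells, a difference of 8.91 log2. Col5a2, a type V chain that limits fibril width, was 8.96 higher in the recipient controls, and its partner Col5a1 4.60 higher. Outside the fibrils, Col8a1 (a short network-forming chain) was 7.27 higher, Col6a1 6.65 and Col6a2 4.99 higher, and Col4a1 4.23 and Col4a2 1.39 higher.

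Enzymes followed the chains unevenly. Plod2, the lysyl hydroxylase that acts on the telopeptides of fibrillar chains, read 13.43 in the EC control and 13.48 in the RF control, against 6.18 in ASML cells. Lox, which starts cross-linking by oxidising lysine, read 13.20 in the EC control and 12.83 in the RF control, against 6.34 in ASML cells. Serpinh1 was 6.55 log2 higher in the recipient controls, Pcolce 6.29, Adamts2 4.87 and P4ha3 4.39. Plod3 read 12.73 in the EC control and 12.78 in the RF control, against 12.97 in ASML cells, and its difference of -0.22 did not pass (adjusted p = 0.0726). Loxl4 (0.21, adjusted p = 0.662) did not pass either. The 2 lower members were Col20a1 (6.43 and 6.53 in the controls, against 7.48, adjusted p = 0.00629) and Col19a1 (-0.24, adjusted p = 0.0429). Of a list of 28 genes that help fold and secrete collagen, 21 were tested, and 16 were higher and 2 lower in the recipient controls. Of 21 collagen receptors and degrading enzymes 11 of 14 tested were higher and 1 lower, and of 30 regulators of collagen genes 17 of 25 were higher and 1 lower.

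RNA of ASTspan8 exosomes carried a selection of these transcripts. Against wild type ASML cells, 19 of the 42 members were higher and 4 lower, where 32.3% of all genes tested were higher and 35.4% lower (67.7% in either direction). The members' median difference was 0.24 log2, beside -0.09 over all genes. The donor line of the exosomes differs from ASML, and the parts of line and of packing into vesicles cannot be told apart.

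Type V chains were higher than in ASML cells, and type I chains did not pass the test. Col5a2 read 13.49 and 13.30 in exosome RNA, against 6.02 in wild type ASML cells (7.37 ± 0.11 log2, SE, adjusted p = 7.12e-05). Col5a3 read 11.92 and 11.94 in exosome RNA, against 7.87 in ASML cells, and Col5a1 11.02 and 10.91, against 7.86. In contrast, Col1a2 read 7.58 and 7.17 in exosome RNA, against 7.53 in ASML cells (-0.16, adjusted p = 0.524), and Col1a1 7.42 and 6.54, against 6.43 (0.55, adjusted p = 0.292). Col3a1 read 6.81 and 7.07 in exosome RNA, against 6.37, a gap of 0.57 close to the floor (adjusted p = 0.0266).

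A set of other chains read higher on both exosome arrays than on any cell array, and Col7a1, Col23a1 and Col24a1 among them passed the filter only through exosome RNA, so these 3 of the 19 could be counted only as higher. Col15a1, a multiplexin of basement membrane zones, read 13.50 on both exosome arrays, against 6.46 in wild type ASML cells and 8.49 to 11.09 on the EC and RF arrays. Col7a1, the anchoring-fibril collagen, read 9.07 and 9.12 in exosome RNA, against 6.33 in ASML cells and 6.21 to 6.52 on the EC and RF arrays. Col23a1, a transmembrane collagen, read 8.80 and 8.84 in exosome RNA, against 6.32 in ASML cells, and Col24a1, a minor fibrillar chain, read 8.12 and 8.28, against 6.32. The 4 lower members were Col6a2 (-2.92), Col4a5 (-2.11), Col20a1 (-1.12) and Col18a1 (-0.56). Col6a1 (-0.09), Col6a3 (-0.30), Col4a1 (0.02), Col4a2 (-0.20), Lox (-0.14), Plod2 (0.10) and Col8a1 (0.15) did not pass the test.

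The processing side was uneven in the same RNA. Serpinh1 read 14.81 and 14.65 in exosome RNA, against 8.57 in wild type ASML cells (6.16 ± 0.11 log2, adjusted p = 8.56e-05), and Pcolce 16.94 and 16.91, against 11.31 (5.62 ± 0.07, adjusted p = 7.08e-05). Loxl2, a lysyl oxidase that also acts on type IV collagen, read 12.12 and 11.89 in exosome RNA, against 6.52 in ASML cells. These 3 values were as high as or close to those of the recipient lines, where Serpinh1 read 14.90 to 15.31, Pcolce 16.56 to 17.75 and Loxl2 10.30 to 11.69. Among the folding and secretion partners 13 of 21 were higher and 1 lower, led by Sparc (a collagen-binding secreted protein, 7.29), Fkbp9 (7.21), Creb3l1 (a transcription factor of collagen-secreting cells, 5.14) and P3h1 (a prolyl 3-hydroxylase, 4.93). Of the 14 receptors and degrading enzymes 7 were higher and 1 lower, with Mmp14, a membrane-bound collagenase, 8.64 higher and the collagen receptor Ddr2 5.14 higher. Of the 25 regulators 12 were higher and 5 lower.

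**Figure D2:**
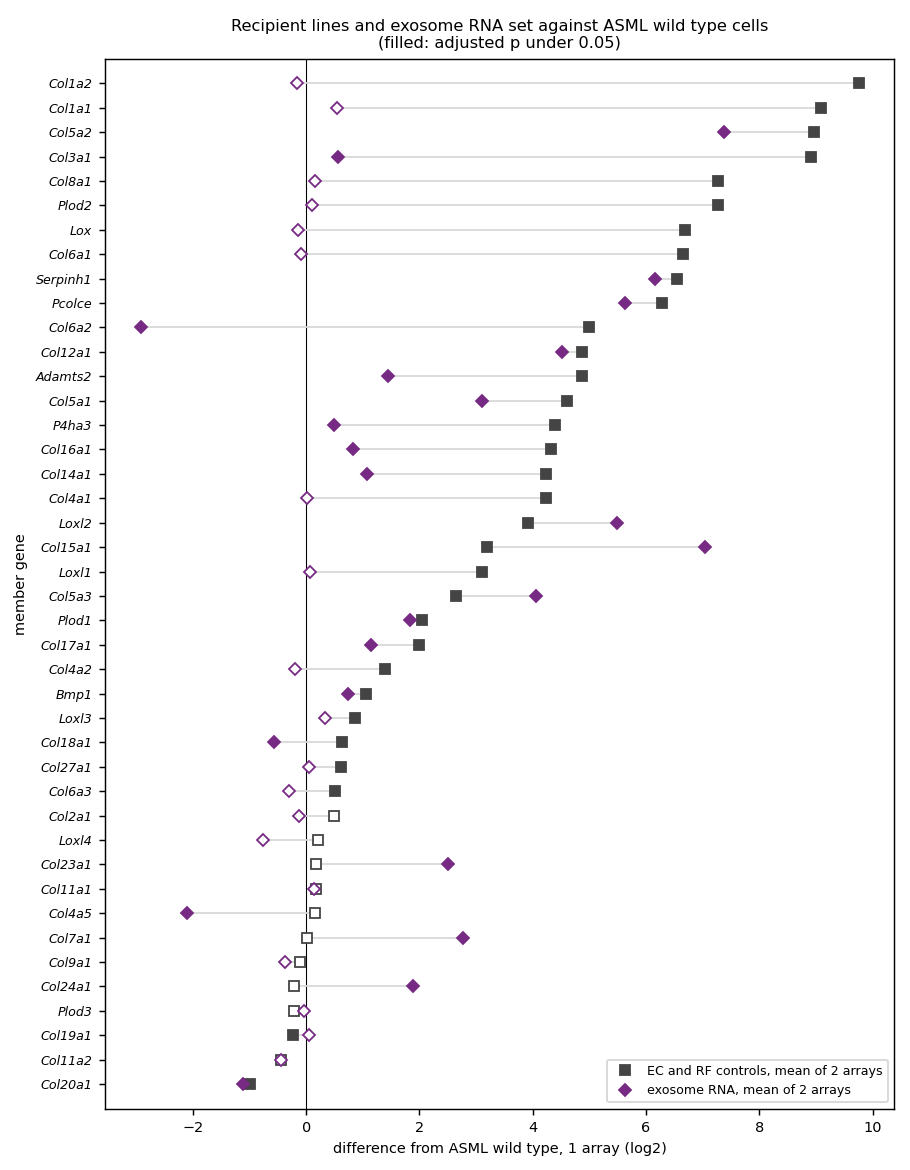
Difference from wild type ASML cells (log2 intensity, x axis) for the 42 members tested, in exosome RNA (diamonds, mean of 2 arrays) and in the EC and RF controls (squares, mean of 2 arrays), against the 1 ASML array; filled symbols passed an adjusted p of 0.05. Col1a2 lies at 9.75 for the recipient controls and at -0.16 for exosome RNA, Col5a2 lies at 8.96 and 7.37, and Col15a1 lies further right for exosome RNA (7.04) than for the recipient controls (3.19).

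The recipient lines were also compared with each other. At an unadjusted p under 0.05 in limma's test were 18 members, beside 5577 of 18619 probes, and fewer passed the adjustment. In an additive fit with terms for line and for treatment (7 arrays), 5 of the 42 members were higher in EC and 0 were lower, where 5.07% of all genes tested were higher and 3.60% lower (8.67% in either direction). Col14a1, a fibril-associated collagen that binds to fibril surfaces, read 12.76 to 13.78 in EC and 6.76 to 8.97 in RF, a difference of 5.29 ± 0.53 log2 (SE, adjusted p = 0.0079), and the lines did not overlap. Col15a1 was 2.23 ± 0.15 higher in EC (adjusted p = 0.00243), and Col4a5 (0.74), Loxl3 (0.67) and the transmembrane chain Col17a1 (0.58) passed with smaller gaps. Col1a1 read 16.06 to 16.70 in EC and 12.41 to 14.88 in RF, so the lines did not overlap, but its 2.57 ± 0.59 missed the threshold (adjusted p = 0.0541), and its dimmer probe passed with 2.46 (adjusted p = 0.0245). In the other direction, Col4a1 read 9.81 to 10.76 in EC and 11.02 to 11.40 in RF, without overlap. It also missed the threshold (-0.94, adjusted p = 0.0528), and its second probe had the opposite sign (0.71). Serpinh1 (0.08, adjusted p = 0.746), Col5a2 (-0.21, adjusted p = 0.386), Plod2 (0.01, adjusted p = 0.987) and Col8a1 (0.04, adjusted p = 0.886) did not pass.

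In EC, 12 of the 42 members rose and 0 fell after ASTspan8 exosomes, against untreated EC, in limma's test, where 13.1% of all genes tested rose and 13.0% fell (26.1% in either direction). The 12 were Loxl2, Col11a1, Col4a1, Col6a3, Col14a1, Col5a1, Bmp1, Col12a1, Loxl1, Col19a1, Plod3 and Col5a3, with adjusted p between 0.0204 and 0.0451. Col6a3 and Col11a1 passed the filter only through the EC arrays after ASTspan8 exosomes and could be called only as higher, which leaves 10 risers without that limit. Their differences ran from 0.35 to 1.10 log2, and the median over the 42 members was 0.16, beside 0.01 over all genes. The count was 2 (Loxl2 and Col6a3) when no probes were filtered out. It was 0 when either EC array after ASTspan8 exosomes was left out, with 7 and 10 members then at an unadjusted p under 0.05.

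Loxl2 had the widest gap, with 11.69 and 11.62 in EC after ASTspan8 exosomes, against 10.55 in untreated EC (1.10 ± 0.13 log2, SE, adjusted p = 0.0204). Col4a1 read 10.76 and 10.69 after ASTspan8 exosomes, against 9.81 (0.92 ± 0.12, adjusted p = 0.0232), while its divergent neighbour Col4a2 read 8.37 and 8.16, against 7.83, and missed the threshold (0.43, adjusted p = 0.181). Col6a3, the third type VI chain, read 7.80 and 7.78 after ASTspan8 exosomes, against 7.03 (0.76 ± 0.09, adjusted p = 0.0215). Its partners Col6a1 (0.07, adjusted p = 0.486) and Col6a2 (0.19, adjusted p = 0.491) did not pass. Among fibrillar chains, Col11a1 read 7.43 and 7.59 after ASTspan8 exosomes, against 6.51, and Col5a1 12.80 and 12.86, against 12.20. Both arrays after ASTspan8 exosomes lay above the control for each of these genes.

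The main fibrillar chains were not among the 12. Col1a2 read 17.57 and 17.62 in EC after ASTspan8 exosomes, against 17.16 in untreated EC (0.43, adjusted p = 0.197). Col1a1 read 16.70 and 16.64, against 16.37 (0.30, adjusted p = 0.643), and Col3a1 15.12 and 15.07, against 14.74 (0.36, adjusted p = 0.145). Col5a2 (-0.34, adjusted p = 0.102), Lox (-0.27, adjusted p = 0.133), Serpinh1 (0.10, adjusted p = 0.558) and Plod2 (-0.58, adjusted p = 0.0773) did not pass. Where a riser has a second probe in the test, that of Bmp1 (0.36), Col12a1 (0.03), Col14a1 (0.60) and Col4a1 (0.76) did not pass on its own. Too dim for the test, the other Col6a3 probe read 6.30 and 6.26 after ASTspan8 exosomes, 6.36 after AS exosomes and 6.17 in untreated EC. The other Col11a1 probes, also too dim, read 7.26 and 7.23 after ASTspan8 exosomes, against 6.71, and 6.25 and 6.12, against 6.17.

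AS exosomes without tetraspanin 8 were measured on 1 EC array. Against the 1 control array, only Col14a1 was at least 2-fold apart (13.78 after AS exosomes, against 12.76), where 1.25% of all genes were (0.127% higher and 1.12% lower), and after quantile normalization no member was. The 2-fold mark is not the test used for ASTspan8 exosomes against control, so the counts cannot be set side by side. Of the 12 members that rose after ASTspan8 exosomes, 11 also read above the control after AS exosomes, all but Loxl1. Of all 11060 genes tested, 5993 read above the control after AS exosomes. After AS exosomes Loxl2 read 11.11, against 10.55 in untreated EC, Col4a1 10.01, against 9.81, and Loxl1 12.90, against 13.06. The control array is the same one as for ASTspan8 exosomes. The 12 were picked for values above this array, which favours such agreement, so the 11 are a description. Set directly against AS exosomes, ASTspan8 exosomes gave higher values for 3 of 42 members and lower values for 0, where 16.3% of all genes passed in either direction (7.76% higher and 8.52% lower). These were Col4a1 (0.72 ± 0.12 log2, adjusted p = 0.0418), Col6a3 (0.64 ± 0.09, adjusted p = 0.0346) and Loxl1 (0.58 ± 0.08, adjusted p = 0.0336), with the limit on Col6a3 given above. Their count ranged from 0 to 13 over the other settings and left-out arrays.

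Genes that act with collagen were counted in EC after ASTspan8 exosomes, where 13.1% of all genes rose and 13.0% fell. Of the 21 folding and secretion partners 5 rose and 2 fell. Among these partners P3h4 (0.63), Crtap (0.59) and Creb3l1 (0.58) rose, and Fkbp14 (-0.60), a folding catalyst, fell. Of the 14 receptors and degrading enzymes 3 rose and 1 fell, with the uptake receptor Mrc2 at 0.99, the collagen-binding integrin chain Itga1 at 0.90, Mmp14 at 0.59 and Itgb1 at -0.57. Of the 25 regulators 3 rose, among them the mesenchymal factor Prrx1 (0.68) and Tcf4 (0.63), and 3 fell, among them Runx2 (-0.76).

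Collagen genes read lower in RF after ASTspan8 exosomes. With 1 array against 1 there is no test, and 12 of the 42 members were at least 2-fold lower than in untreated RF and 1 was higher, where 5.20% of all genes were lower and 5.10% higher (10.3% in either direction). The members' median difference was -0.43 log2, beside 0.02 over all genes. The 12 were Col3a1, Col1a1, Col14a1, Adamts2, Loxl1, Col5a1, Col1a2, Lox, Col6a2, Col6a1, Col12a1 and Pcolce. As the RNA is from bulk cultures, fewer cells of a kind and less RNA per cell cannot be told apart.

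Col3a1 read 12.21 in RF after ASTspan8 exosomes, 13.99 after AS exosomes and 15.82 in untreated RF, a difference of -3.61 log2 between ASTspan8 exosomes and control. Col1a1 read 12.41 after ASTspan8 exosomes, 14.88 after AS exosomes and 14.67 in untreated RF (-2.26 against control, and -1.39 on its dimmer probe). Col1a2 read 16.14 after ASTspan8 exosomes, 17.18 after AS exosomes and 17.40 in untreated RF (-1.26). Among the RF arrays, all 3 chains were thus lowest after ASTspan8 exosomes. Col5a1 (-1.29) passed the 2-fold mark, Col5a2 (-0.95 and -0.94 on its 2 probes) lay just under it, and Col6a2 (-1.22) and Col6a1 (-1.13) were lower together.

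Of the 13 processing enzymes 4 were at least 2-fold lower and 0 higher. Adamts2, which cuts the amino-terminal propeptide of fibrillar procollagens, read 9.94 after ASTspan8 exosomes, 11.18 after AS exosomes and 11.92 in untreated RF (-1.98). Loxl1, known for elastic fibres, read 11.10 after ASTspan8 exosomes, 12.35 after AS exosomes and 12.81 in untreated RF (-1.71). Lox read 11.59 after ASTspan8 exosomes, 13.23 after AS exosomes and 12.83 in untreated RF (-1.24), and Pcolce was 1.04 log2 lower than the control on its brighter probe (its difference was -1.04, and -1.03 on the other). The other extracellular members were closer to the control, with Loxl4 at 0.88, Loxl2 at 0.33, Loxl3 at -0.06 and Bmp1 at -0.25. In the endoplasmic reticulum, Plod2 differed by -0.95, Plod1 by -0.64, Serpinh1 by -0.19, P4ha3 by 0.28 and Plod3 by 0.39. The type IV chains gave 0.10 for Col4a1 (-0.77 on its second probe), -0.30 for Col4a2 and -0.50 for Col4a5. The 1 higher member, Col20a1, read 7.82 after ASTspan8 exosomes, against 6.53 in untreated RF, with the other EC and RF arrays at 6.37 to 6.63. Probes disagreed for Col14a1 (-2.16 and 0.13) and for Col12a1 (-1.07, -0.62 and -0.31).

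AS exosomes gave fewer such gaps in RF. Only Col3a1 (-1.83) and Col6a1 (-1.03) were at least 2-fold lower than in untreated RF, where 1.16% of all genes were lower (2.15% in either direction). Of the 12 members at least 2-fold lower after ASTspan8 exosomes, 9 also read below the shared control after AS exosomes. Of all 11060 genes tested, 5731 did. The type VI chains read alike after both exosomes. Col6a1 read 11.57 after ASTspan8 exosomes, 11.67 after AS exosomes and 12.70 in untreated RF, and Col6a2 13.23, 13.57 and 14.45. Set against AS exosomes, ASTspan8 exosomes gave at least 2-fold lower values for 7 members (Col1a1 -2.47, Col14a1 -2.21, Col3a1 -1.78, Lox -1.64, Loxl1 -1.25, Adamts2 -1.24 and Col1a2 -1.04) and a higher value for Col20a1 (1.19), where 4.81% of all genes were lower and 4.85% higher (9.66% in either direction). These comparisons share arrays.

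Fibroblast markers were lower on the same RF array. Of the 14 markers, 9 lay above the 75th percentile after ASTspan8 exosomes, against 10 in untreated RF, the list's median was 11.88, against 13.07, and its summed intensity was 17.67 on the log2 scale, against 18.92. After AS exosomes 10 markers lay above the 75th percentile, the median was 12.22 and the summed value was 18.46. Lum, a collagen-binding proteoglycan, read 9.17 after ASTspan8 exosomes, 10.76 after AS exosomes and 12.91 in untreated RF. In the same order, Pdgfra read 12.77, 14.11 and 14.97, and Dcn read 13.51, 12.78 and 14.70. Dcn was thus lowest after AS exosomes. Pdgfrb read 13.45, 12.88 and 13.23. Thy1 was near the floor on each of these arrays. The part of these markers in the collagen differences was not tested.

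Partner genes were counted in RF after ASTspan8 exosomes, where 5.20% of all genes were at least 2-fold lower and 5.10% higher. They were at least 2-fold lower for 4 of 21 folding and secretion partners (Fkbp7 -1.46, P3h4 -1.24, Sparc -1.21 and P3h1 -1.17) and higher for Creb3l1 (2.16). Among 14 receptors and degrading enzymes 3 were lower, led by Itga1 (-1.62) and Mrc2 (-1.54), and 0 were higher. Among 25 regulators 4 were higher and 0 lower: Runx1 (1.71), the TGF-beta pathway inhibitor Skil (1.53), the TGF-beta receptor Tgfbr2 (1.51) and Cebpb (1.03).

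**Figure D3:**
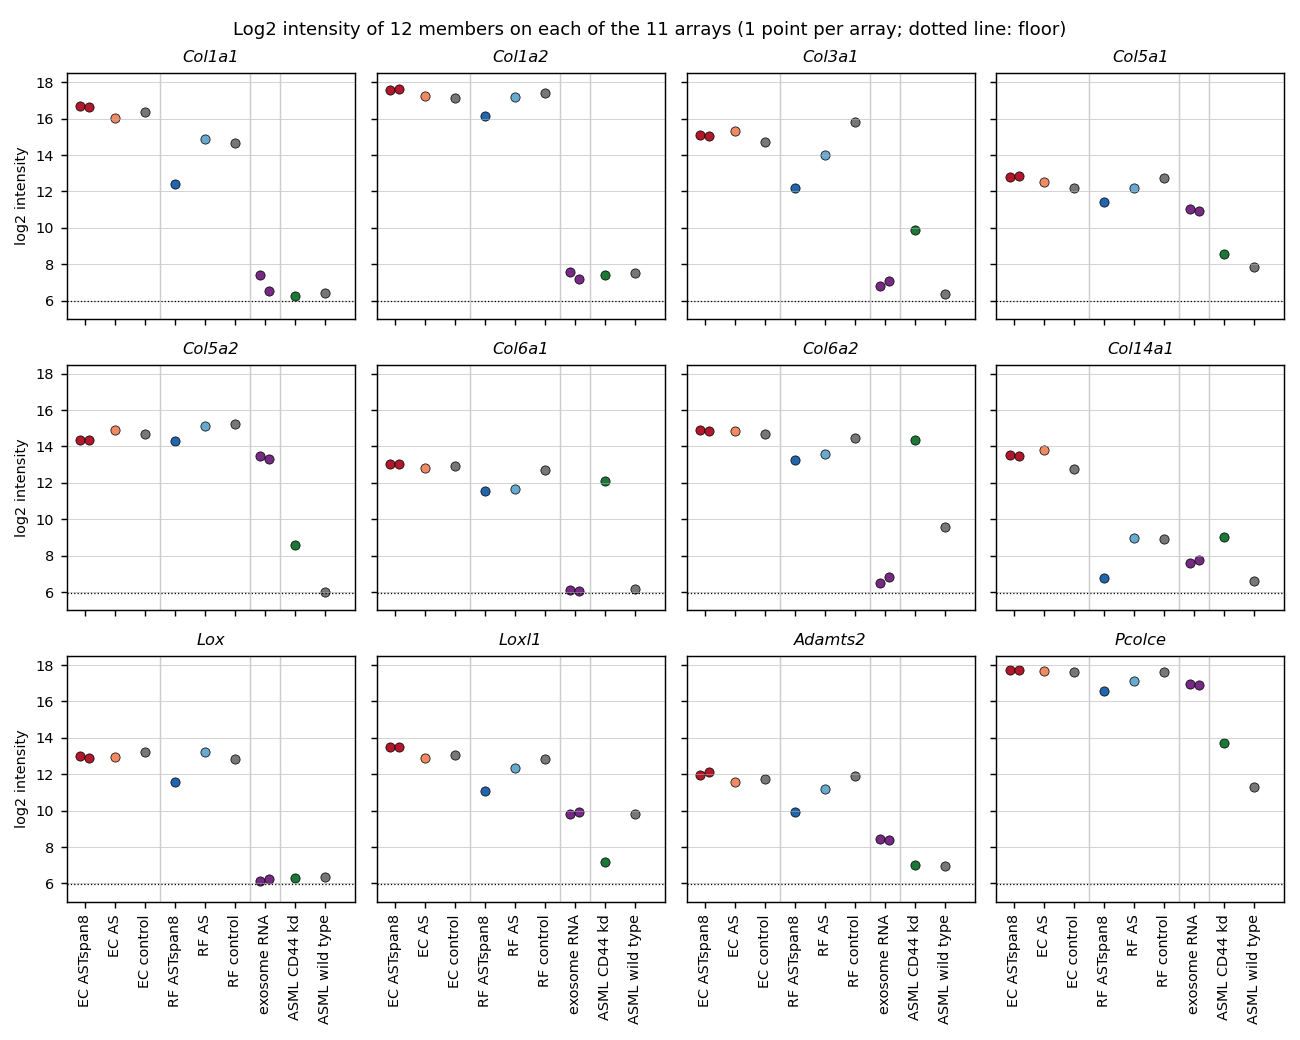
Log2 intensity of 12 members on each of the 11 arrays (1 point per array; the dotted line is the floor of 5.96). In RF, Col1a1, Col3a1, Lox, Loxl1 and Adamts2 are lowest after ASTspan8 exosomes, while in EC the 2 arrays after ASTspan8 exosomes stay within 0.42 log2 of the control for these genes.

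The difference between the lines in this response was tested directly, as the effect of ASTspan8 exosomes against control in EC minus the same effect in RF. Of the 42 members 17 had a positive and 1 a negative difference of effects, where 17.4% of all genes tested were positive and 16.3% negative (33.7% in either direction). The median over the members was 0.59 log2, beside 0.00 over all genes. For 14 of the 17 the EC effect was above 0 and the RF effect below it. The 17 were picked for an EC effect above the RF effect, which favours this split. The split over all genes was not counted, so the 14 are a description. Lox and Plod1 had both effects below 0, and Col4a1 had both above 0 on its brighter probe. The second Col4a1 probe gave 0.76 in EC and -0.77 in RF.

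The widest difference of effects was that of Col3a1, with 0.36 in EC and -3.61 in RF (3.97 ± 0.21, SE, adjusted p = 0.0089). Col14a1 had 0.74 in EC and -2.16 in RF (2.90 ± 0.17), but its second probe did not pass (0.47, adjusted p = 0.376). Adamts2 followed with 0.31 in EC and -1.98 in RF (2.29), Loxl1 with 0.42 and -1.71 (2.13), Col5a1 with 0.63 and -1.29 (1.92) and Col1a2 with 0.43 and -1.26 (1.69). Col1a1 had 0.30 in EC and -2.26 in RF, and its 2.56 missed the threshold (adjusted p = 0.0503) while its dimmer probe passed (1.75, adjusted p = 0.023). The type VI chains Col6a2 (1.41) and Col6a1 (1.20) passed, and Col6a3 did not (0.39, adjusted p = 0.116). Pcolce gave 1.18 and 1.20 on its 2 probes, both past the threshold. Serpinh1 (0.29) and Plod2 (0.37) did not pass.

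Of the 12 members that rose in EC and the 12 that were at least 2-fold lower in RF, 4 were in both groups (Col12a1, Col14a1, Col5a1 and Loxl1). The same overlap over all genes was not counted, so the 4 are a description. A second probe of Col12a1 gave 0.03 in EC, and that of Col14a1 gave 0.13 in RF. In an additive fit over both lines, 0 members passed for ASTspan8 exosomes against control (limma; 6 at an unadjusted p under 0.05), where 0.00904% of all genes passed. The RF side of every such difference is a single array for each condition, assumed to vary like the duplicated groups. The count of 18 was 0 when either EC array after ASTspan8 exosomes was left out (16 and 17 at an unadjusted p under 0.05) and 11 with no filter on dim probes. Of the partners, 7 of 21 folding and secretion partners had positive and 3 negative differences of effects, led by P3h4 (1.87), and Mrc2 (2.53) and Itga1 (2.52) led 6 positive and 2 negative among 14 receptors and degrading enzymes. Of the 25 regulators 4 were positive and 8 negative, with Runx1 at -2.12.

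**Figure D4:**
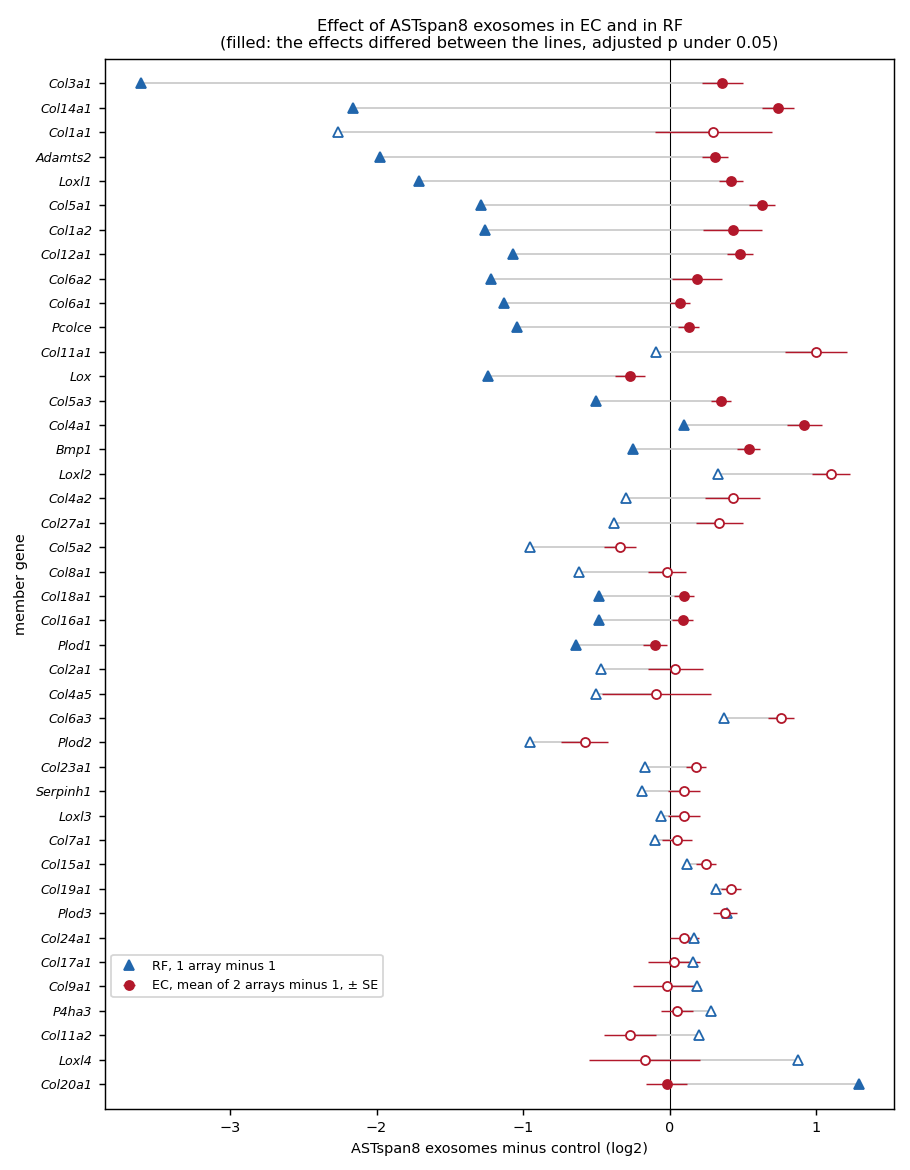
Effect of ASTspan8 exosomes against control (log2, x axis) in EC (circles, mean of 2 arrays minus 1, bars: SE) and in RF (triangles, 1 array minus 1) for the 42 members; filled symbols mark genes whose effects differed between the lines at an adjusted p of 0.05. Col3a1 lies at 0.36 in EC and at -3.61 in RF, and Col20a1, at -0.02 in EC and 1.29 in RF, is the 1 filled gene whose RF effect lies above its EC effect.

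ASML cells with CD44 knock-down were set against wild type ASML cells, 1 array each and so without a test. At least 2-fold higher were 8 of the 42 members and at least 2-fold lower were 3, where 10.6% of all genes were higher and 8.94% lower (19.5% in either direction). The members' median difference was 0.08 log2, beside -0.01 over all genes.

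Type VI collagen had the widest gap. Col6a1 read 12.09 with CD44 knock-down, against 6.17 in wild type cells (5.92), and its neighbour Col6a2 14.34, against 9.58 (4.76). The knock-down values lay within the range of the recipient lines (11.57 to 13.02 for Col6a1 and 13.23 to 14.88 for Col6a2), while Col6a3 read 6.38, against 6.39, near the floor on both ASML arrays. Col3a1 read 9.90 with CD44 knock-down, against 6.37 in wild type cells (3.53), and its chromosomal neighbour Col5a2 8.60, against 6.02 (2.58, and 1.18 on its second probe). Col1a1 (6.24, against 6.43), near the floor on both arrays, and Col1a2 (7.42, against 7.53) were not 2-fold apart. Col5a3 was 1.84 higher with CD44 knock-down, Col5a1 0.69 higher, and Pcolce read 13.72, against 11.31 (2.41, and 2.16 on its second probe). Col14a1 (2.40) and Col12a1 (2.22) were also higher, but their other probes gave 0.33 for Col14a1 and 0.63 and 0.24 for Col12a1.

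The 3 lower members were Loxl1, which read 7.17 with CD44 knock-down, against 9.83 in wild type cells (-2.66), Col16a1 (9.04, against 10.41), a fibril-associated chain, and Loxl3 (8.44, against 9.74). Serpinh1 (8.60, against 8.57), Lox (6.31, against 6.34) and Plod2 (6.27, against 6.18) differed by 0.09 log2 or less. On these arrays the epithelial list had 9 of 12 markers above the 75th percentile with CD44 knock-down, against 10 in wild type cells, and summed intensities of 16.84, against 18.17, on the log2 scale. The fibroblast list had 2 of 14 above it on both and summed intensities of 16.70, against 13.97, with medians of 6.39, against 6.74. Its markers Dcn (6.27, against 6.19) and Lum (6.39, against 6.36) were near the floor on both arrays. The higher sum thus came from other genes of the list, which are not named here. The part of these shifts in the collagen values was not tested. Among partners, P3h4 (2.53), Fkbp10 (2.08) and Sparc (2.02) led 5 higher and 1 lower of 21 folding partners, Timp1 (2.14) and Timp2 (1.95), inhibitors of matrix proteases, led 3 higher and 0 lower of 14 receptors and degrading enzymes, and Scx (3.77), a tendon factor that drives collagen I genes in tenocytes, led 4 higher and 1 lower of 25 regulators.

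**Figure D5:**
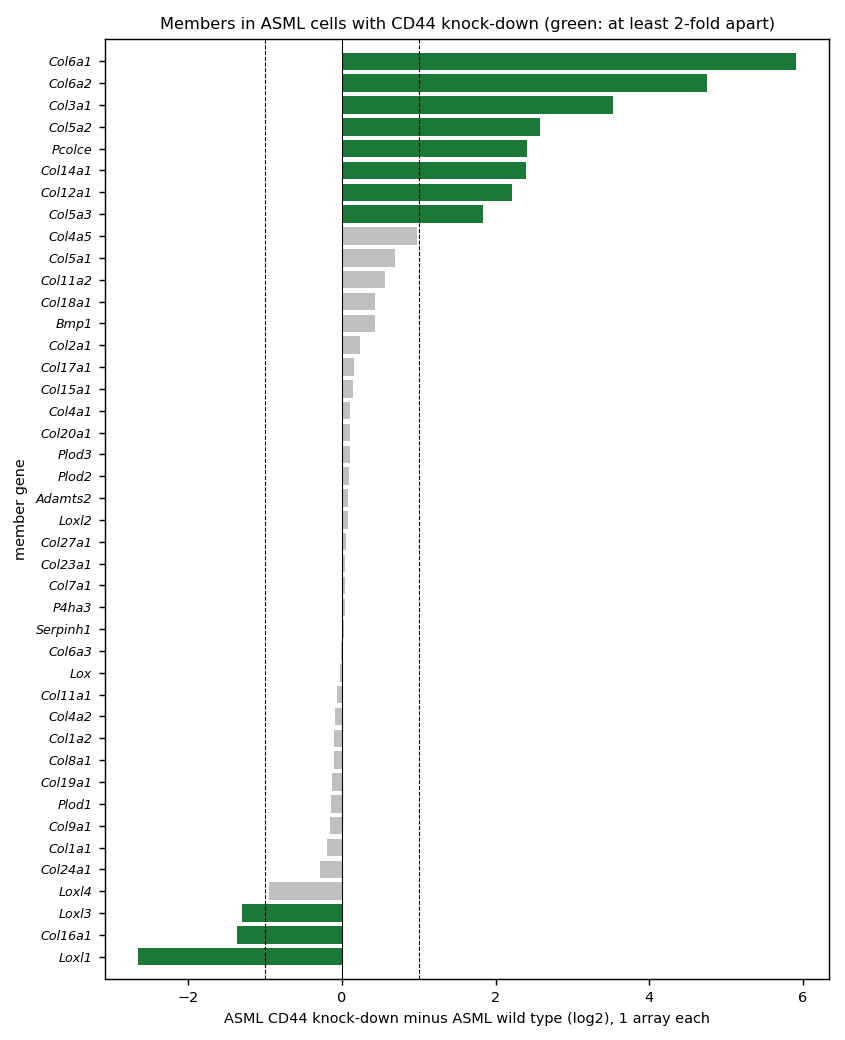
Difference between ASML cells with CD44 knock-down and wild type ASML cells (log2 intensity, x axis; 1 array each) for the 42 members; dashed lines mark 2-fold and green bars lie beyond it. Col6a1 and Col6a2 lead at 5.92 and 4.76, and Loxl1 lies lowest at -2.66.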

How the data were processed

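The authors deposited linear intensity values, already normalized between arrays. Per the labels' protocols, RNA was extracted with Trizol and cleaned up on columns. The normalization, background correction and probe summary are not given in the sources used here. Array medians lay between 156.5 and 165.4. Values were floored at the 1st percentile (62.25) and log2 transformed. Probes entered the tests if their mean percentile on the array exceeded 50 in at least 1 of the 9 groups (18619 of 30367 probes). Comparisons used lmFit and eBayes of limma 3.58.1 (R 4.3.3), adjusted by Benjamini-Hochberg over all probes kept. A fit of 9 group means on 11 arrays left 2 residual degrees of freedom, and the additive fit of 7 EC and RF arrays left 3, so few arrays limit the precision. The script was tested on simulated data. Comparisons of 1 array with 1 were counted at 2-fold without a test. Shares of all genes were counted over 11060 named genes, each by its brightest probe. Symbols came from the platform's annotation, and promoters from RefSeq (GRCr8). Any member could be named. Of the partner lists, the largest called differences in each comparison were named. Members, lists and comparisons were chosen with earlier results of these data known. Pcolce2 is not analysed here. Alternatives were quantile normalization, other filters, trend and robust eBayes, averaged probes per gene, a lower fold threshold and fewer arrays.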

Additional observations from a re-analysis of the deposited data

Results flagged for a closer look

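For 18 members the effect of ASTspan8 exosomes against control differed between EC and RF in a direct test of the difference (EC effect minus RF effect, log2, limma, adjusted p under 0.05), where 33.7% of all genes tested did so. Fibrillar chains were Col3a1 (3.97), Col5a1 (1.92), Col1a2 (1.69) and Col5a3 (0.85). Fibril-associated chains were Col14a1 (2.90), Col12a1 (1.55), Col16a1 (0.57) and, in the opposite direction, Col20a1 (-1.31). Other chains were Col6a2 (1.41), Col6a1 (1.20), Col4a1 (0.82) and Col18a1 (0.58). The enzymes and their helpers were Adamts2 (2.29), Loxl1 (2.13), Pcolce (1.18), Lox (0.97), Bmp1 (0.80) and Plod1 (0.53). Second probes of Col14a1 (0.47), Col12a1 (0.65) and Bmp1 (0.76) did not pass the same test, whereas those of Col4a1 (1.53) and Pcolce (1.20) did. In RF, each effect is the difference of 2 single arrays.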

How the results depend on the processing

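The count of 12 members that rose in EC after ASTspan8 exosomes was 2 with no filter on dim probes, and ranged from 0 to 14 when single arrays were left out. For ASTspan8 against AS exosomes in EC the count of 3 was 0 with no filter, 12 with a filter at the 75th percentile, 13 with trend and robust eBayes, 0 with only the 7 EC and RF arrays, and 0 whichever array was left out. The contrast of the ASTspan8 effects of both lines passed for 11 members with no filter, and for 0 to 22 when single arrays were left out. Members higher in EC than in RF numbered 3 with the filter at the 75th percentile and 2 without either EC array after ASTspan8 exosomes. Of the untested comparisons, the 1 member apart in EC after AS exosomes was 0 with quantile normalization and 0 with the mean of a gene's probes. At 1.5-fold, 9 members were apart in RF for AS exosomes against control and 14 for ASTspan8 against AS exosomes. The cause of these changes was not tested. Without both exosome arrays, an alternative chosen after seeing the data, 22 members passed for the difference between lines and 33 for the recipient controls against ASML cells. Of the values of single genes under the alternatives, 734 kept their direction and side of the threshold, 129 kept their direction and no longer passed, and 0 changed sign. Other filters, trend and robust eBayes and a lower fold threshold leave a gene's difference as it was, so its sign could not change under them. The lower fold threshold could only keep a call. These counts therefore do not measure how stable the directions are. No paired analysis was possible because the groups compared share fewer than 2 replicate numbers. Quantile normalization changed no count of a tested comparison by over 1.5 times.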
